A study of Oryctolagus cuniculus with 24 samples.

Results

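GCH1 and TNFAIP6 were examined in rabbit peripheral blood mononuclear cells (PBMCs) cultured with or without stimulation. They were selected on the difference between mock-stimulated cells at T4 (4 hours of culture) and at T24 (24 hours), where both were among the genes with the largest drop in signal, and are 2 of the 28890 genes measured. PBMCs of 4 New Zealand White rabbits, all adult females and numbered 1, 2, 4 and 5, were prepared from blood on a density gradient. The cells of each rabbit were either mock-stimulated with buffer (the groups labelled Control), stimulated with lipopolysaccharide (LPS, a cell wall component of Gram-negative bacteria that is sensed by TLR4) at 1 µg/mL, or stimulated with phorbol myristate acetate at 10 ng/mL together with the calcium ionophore ionomycin at 1 µg/mL (PMA-Ionomycin, which bypasses surface receptors and activates lymphocytes in particular). RNA was taken at T4 and T24, which gave 6 groups of 4 one-colour Agilent arrays, 24 arrays in all, with every rabbit in every group. A culture without agents is the only reference in this design, so that changes from blood to T4 were not measured, and fewer cells of a type and less RNA per cell cannot be told apart in such bulk RNA.

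GCH1 encodes GTP cyclohydrolase 1, the first and rate-limiting enzyme in the synthesis of tetrahydrobiopterin. This cofactor is required by the nitric oxide synthases and by the aromatic amino acid hydroxylases, and GCH1 transcription in blood cells is known to respond to LPS, TNF, IL-1 and interferon gamma. TNFAIP6 encodes TSG-6, a secreted protein that binds hyaluronan through its link module, transfers heavy chains of the inter-alpha-inhibitor onto hyaluronan and dampens neutrophil migration. Its transcription is known to be induced by TNF and IL-1 in monocytes, fibroblasts and other cells, along with PTGS2, the inducible cyclooxygenase.

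GCH1 was read by a single 60-base probe, printed in 3 spots, which carried only an Ensembl gene identifier (ENSOCUG00000003060) in the files and took its symbol from the study's list of immunity genes added to the array; the design gave it no genome position. Its first 30 bases are shown because every GCH1 value below rests on this 1 oligonucleotide; no base is set in capitals, as no part of a probe is singled out.
GCH1 probe, bases 1 to 30: tctccgttgtgtgtgtatttgccgtgatgt
TNFAIP6 was read by 7 overlapping 60-base probes, each printed once, that tile bases 593 to 774 of its mRNA (NM_001082311). In the oryCun2 assembly the probes start at base 90358989 of chromosome 7 and end at base 90367714. Probe 5 is aligned over 8604 bp of genome, and so crosses introns, whereas probes 1 and 2 are aligned over 60 bp each, within 1 exon. Probes 1, 4 and 7 are shown because together they cover nearly all of the tiled stretch; the strand is not given.
TNFAIP6 probe 1, chr7:90358989-90359048, mRNA bases 593 to 652: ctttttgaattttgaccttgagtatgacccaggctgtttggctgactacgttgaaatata
TNFAIP6 probe 4, chr7:90359047-90363247, mRNA bases 651 to 710: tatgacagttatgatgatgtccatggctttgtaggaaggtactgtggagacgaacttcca
TNFAIP6 probe 7, chr7:90363252-90367714, mRNA bases 715 to 774: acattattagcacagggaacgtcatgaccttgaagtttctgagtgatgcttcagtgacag

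Levels below are log2 signals relative to the median spot of the same array, so that a level of 0 is the signal of the median spot and 1 unit is a 2-fold step. Between 51.4% and 62.3% of the spots of an array were well above background, and no pair of arrays held identical values. A level compares arrays for 1 gene and not 1 gene with another, because each probe binds with its own strength.

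In mock-stimulated cells, GCH1 stood at 6.28, 5.53, 3.79 and 4.41 in rabbits 1, 2, 4 and 5 at T4 (5.01 ± 1.11, SD, n = 4). At T24 it stood at 0.89, 0.24, -0.39 and -0.93 (-0.05 ± 0.79, SD, n = 4), and the array of rabbit 5 was not well above background. The T4 and T24 arrays did not overlap, and the mean fell by 5.06 on the log2 scale, or 33.3-fold (SE 0.49). Without the T24 array of rabbit 5 it fell by 4.76, or 27.1-fold. The drop was seen in each rabbit and ranged from -4.18 to -5.39. TNFAIP6 stood at 8.74, 9.01, 6.92 and 6.95 at T4 (7.90 ± 1.13, SD, n = 4) and at 4.79, 5.11, 3.67 and -0.70 at T24 (3.22 ± 2.68, SD, n = 4). All rabbits were again lower at T24, by 3.25 to 7.65, but rabbit 5 was far below the other 3, and only 1 of its 7 probes was well above background. The mean fell by 4.69, or 25.8-fold (SE 0.84), and by 3.38, or 10.4-fold, without that array. These differences chose both genes and are therefore given without a test. Over all genes, 12.5% passed the test between the mock groups, with 5.13% lower and 7.42% higher at T24. The 3625 genes passing became 2330, 2274 and 2372 without rabbits 1, 2 and 4.

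GCH1 had the largest mean drop of all 28890 genes and TNFAIP6 ranked 4, and without the mock T24 array of rabbit 5 they ranked 4 and 18. SERPINB2, the plasminogen activator inhibitor of monocytes, lay between them with a log2 difference of -4.80 and was not chosen. TUBB1, the beta tubulin of platelets, and FERMT2, an integrin-binding adaptor, followed among genes with a symbol, with log2 differences of -4.35 and -4.34. With the scanner's background-subtracted signal, scaled to its upper quartile instead of the median, the drop of GCH1 was -6.47.

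**Figure D1:**
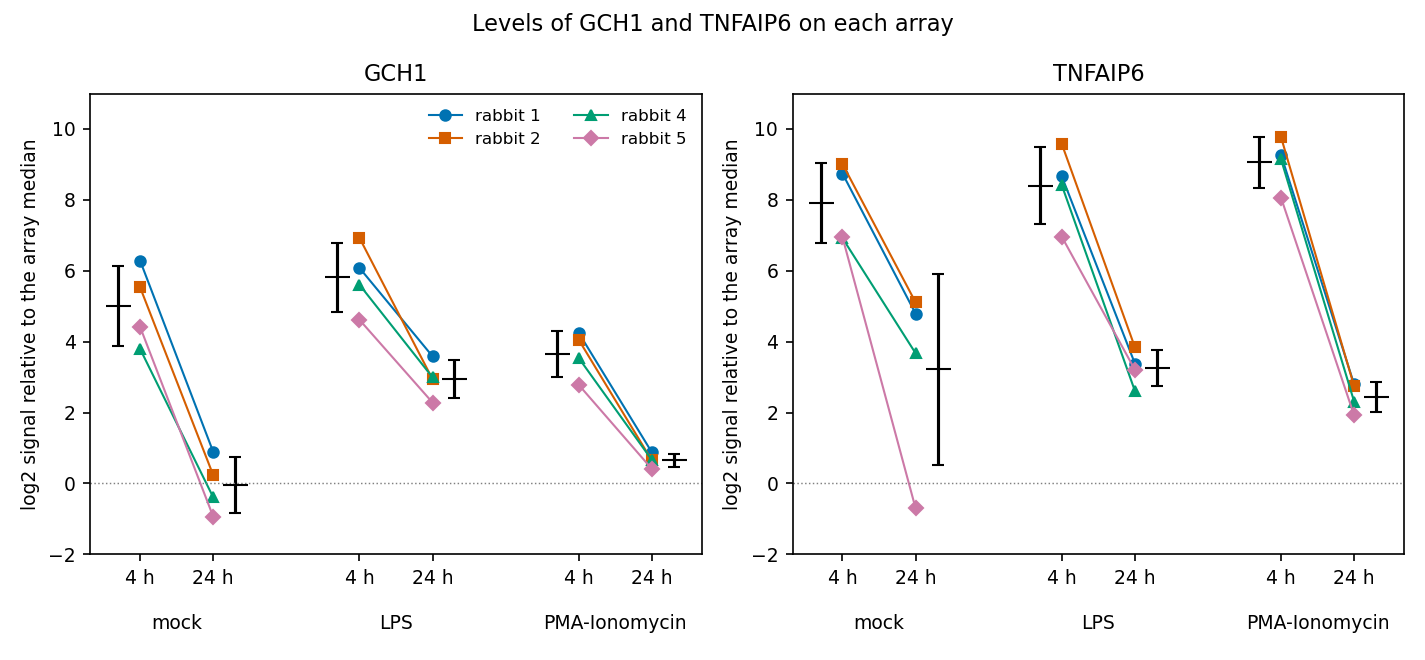
Level of GCH1 (left) and TNFAIP6 (right) on each of 24 arrays, as log2 signal relative to the array median, at 4 h and 24 h of mock, LPS or PMA-Ionomycin culture. Lines join the arrays of 1 rabbit and black bars give the mean and SD of 4 rabbits; all lines descend, and rabbit 5 ends at -0.70 for TNFAIP6 in mock culture.

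After LPS, GCH1 stood at 6.08, 6.93, 5.61 and 4.62 in rabbits 1, 2, 4 and 5 at T4 (5.81 ± 0.96, SD, n = 4) and at 3.59, 2.94, 2.99 and 2.28 at T24 (2.95 ± 0.53, SD, n = 4). The highest T24 array lay below the lowest T4 array. GCH1 fell by 2.86, or 7.25-fold (SE 0.49), with an adjusted p of 0.000113 by limma, and was lower in 4 of 4 rabbits. After PMA-Ionomycin it stood at 4.25, 4.05, 3.54 and 2.78 at T4 (3.66 ± 0.65, SD, n = 4) and at 0.88, 0.65, 0.67 and 0.41 at T24 (0.65 ± 0.19, SD, n = 4). Here GCH1 fell by 3.0, or 8.02-fold (SE 0.49, limma adjusted p = 2.98e-05), again in 4 of 4 rabbits. All 8 arrays at T24 of stimulated culture remained well above background for GCH1.

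TNFAIP6 also fell in both stimulated cultures. After LPS, TNFAIP6 stood at 8.66, 9.58, 8.41 and 6.96 at T4 (8.40 ± 1.08, SD, n = 4) and at 3.38, 3.85, 2.61 and 3.21 at T24 (3.26 ± 0.51, SD, n = 4). It fell by 5.14, or 35.3-fold (SE 0.84, limma adjusted p = 6.82e-05), in 4 of 4 rabbits. After PMA-Ionomycin it stood at 9.26, 9.76, 9.14 and 8.06 at T4 (9.06 ± 0.72, SD, n = 4) and at 2.79, 2.74, 2.30 and 1.92 at T24 (2.44 ± 0.41, SD, n = 4). It fell by 6.62, or 98.1-fold (SE 0.84, limma adjusted p = 9.93e-07), in 4 of 4 rabbits. For both stimulations the T4 and T24 arrays of TNFAIP6 were at least 3 units apart.

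A lower signal at T24 was common in stimulated cells: 37.6% of all genes passed the test between T4 and T24 after LPS, with 20.9% lower and 16.7% higher at T24. After PMA-Ionomycin 33.7% passed, with 13.4% lower and 20.3% higher. Of the genes passing, 44.3% were higher at T24 after LPS and 60.2% after PMA-Ionomycin, against 32.3% and 47.0% with the background-subtracted and rescaled signal. The median change over all genes was small beside that of the members, at -0.19 after LPS and -0.10 after PMA-Ionomycin. The number of genes passing after LPS was 10863 with all rabbits, 6637 without rabbit 2 and 7143 without rabbit 4, whereas both members passed in all these settings. The time change after PMA-Ionomycin differed from that after LPS by -0.15 for GCH1 (95% interval -1.59 to 1.30, limma adjusted p = 0.913) and by -1.48 for TNFAIP6 (95% interval -3.95 to 1.00, limma adjusted p = 0.408). Neither difference passed the test, although that of TNFAIP6 was negative in 4 of 4 rabbits. The TNFAIP6 difference had an SE of 1.19, and of 0.73 without the mock T24 array of rabbit 5. That array enters only the spread and not the difference. Over all genes, 32.5% passed this test.

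The stimulations were then compared at the same time. GCH1 was lower after PMA-Ionomycin than after LPS at T4 by a log2 difference of -2.15, or 4.45-fold (SE 0.49, limma adjusted p = 0.00162), and at T24 by -2.30, or 4.92-fold (SE 0.49, limma adjusted p = 0.000539). Each of the 4 rabbits showed this at both times. TNFAIP6 differed between the stimulations by 0.65 at T4, higher after PMA-Ionomycin in 4 of 4 rabbits (95% interval -1.10 to 2.40, limma adjusted p = 0.665). At T24 it differed by -0.82, lower after PMA-Ionomycin in 4 of 4 rabbits (95% interval -2.57 to 0.93, limma adjusted p = 0.553). The spread that limma used for TNFAIP6 included the wide mock group at T24. With only the arrays of LPS and PMA-Ionomycin at T24 in the fit, the same difference of -0.82 had an adjusted p of 0.0256 by limma. Over all genes, 26.7% passed at T4 and 9.03% were lower after PMA-Ionomycin, and 36.1% passed at T24 with 12.5% lower. Of the genes passing, 66.2% were higher after PMA-Ionomycin at T4 and 65.4% at T24, against 39.1% and 47.9% with the background-subtracted and rescaled signal and 50.3% and 53.0% with quantile normalization alone.

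Differences from mock-stimulated cells use the arrays on which the genes were chosen, and are given as values only. At T4, GCH1 was 0.80 above mock after LPS (SE 0.49, higher in 3 of 4 rabbits) and -1.35 from mock after PMA-Ionomycin (SE 0.49, lower in 4 of 4). At T24, GCH1 was 3.0 above mock after LPS, or 8.01-fold (SE 0.49). This difference lay between 2.70 and 3.38 in the 4 rabbits, and the LPS and mock arrays did not overlap. After PMA-Ionomycin at T24 it was 0.70 above mock (SE 0.49), with overlapping arrays. With the background-subtracted and rescaled signal, the LPS difference at T24 was 4.22.

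For TNFAIP6, LPS left the T4 level 0.50 above mock (SE 0.84, higher in 3 of 4 rabbits) and PMA-Ionomycin left it 1.15 above (SE 0.84, higher in 4 of 4). At T24 the mean difference between LPS and mock was 0.05 (SE 0.84), which hid opposite values: -1.41, -1.26 and -1.06 in rabbits 1, 2 and 4, and 3.91 in rabbit 5. Without the mock array of rabbit 5 the difference was -1.26. PMA-Ionomycin differed from mock at T24 by -0.78 (SE 0.84) with all rabbits and by -2.08 without that array. Rabbit 5 was thus the one animal in which mock culture ended below both stimulated cultures.

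**Figure D2:**
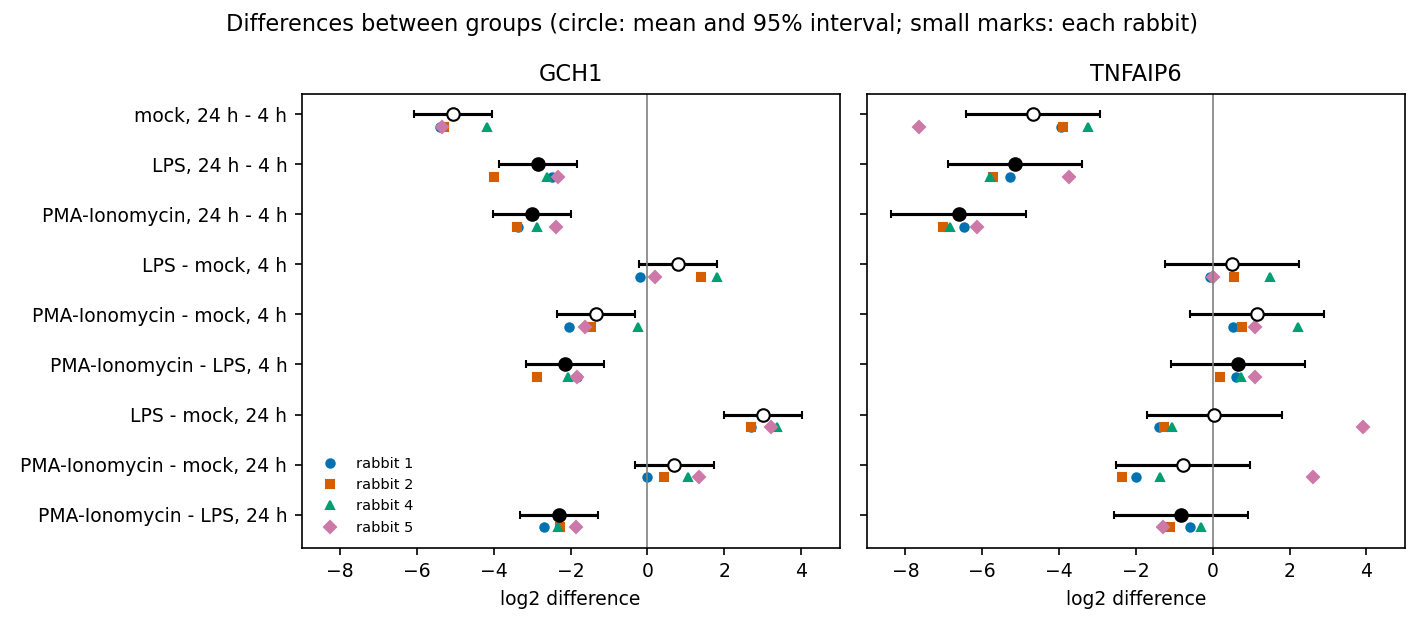
Log2 differences between groups for GCH1 (left) and TNFAIP6 (right), with the mean and its 95% interval as a circle and bar and the value of each rabbit as a small mark. Filled circles were tested and open circles use the mock arrays and were not; LPS minus mock at 24 h lies at 3.0 for GCH1 and at 0.05 for TNFAIP6, where rabbit 5 stands at 3.91.

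By group mean, GCH1 was ordered LPS T4, mock T4, PMA-Ionomycin T4, LPS T24, PMA-Ionomycin T24 and mock T24. Of the neighbours in this order, only LPS T24 and PMA-Ionomycin T24 had arrays that did not overlap. TNFAIP6 was ordered PMA-Ionomycin T4, LPS T4, mock T4, LPS T24, mock T24 and PMA-Ionomycin T24. Its only gap was between mock T4 and LPS T24, where the means were 4.64 apart and the nearest arrays 3.08 apart. At T24 all 4 LPS arrays of GCH1 lay above those of the other 2 groups, whereas the arrays of TNFAIP6 overlapped between all 3 groups.

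The rabbits kept part of their order across groups. Rabbit 1 lay above the group mean in 6 of 6 groups for GCH1 and in 6 of 6 for TNFAIP6, and rabbit 5 lay below it in 6 of 6 groups for both genes. On average rabbit 5 was -0.74 from the group mean for GCH1 and -1.32 for TNFAIP6. In the mock T24 group, rabbit 5 was the lowest of the 4 rabbits for 38.8% of all genes, for 16 of the 22 measured genes of the TNF and IL-1 response list described below, and for none of the 6 measured platelet markers. The mean level of 11 monocyte markers was lowest in rabbit 5 in every group. At mock T24 it was 2.83 against 3.43 to 3.58 in the other rabbits. At LPS T24, where TNFAIP6 of rabbit 5 stood at 3.21, it was 2.25 against 3.06 to 3.31. The mean of 7 B cell markers was highest in the mock T24 array of rabbit 5, at 5.07 against 3.39 to 3.99. The part of these markers in the TNFAIP6 value was not tested.

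The 7 TNFAIP6 probes gave nearly the same differences although their levels differed. Their group means at mock T4 ran from 7.35 to 8.39, and at PMA-Ionomycin T24 from 1.92 to 2.93. The change from T4 to T24 lay between -5.02 and -5.25 after LPS, between -6.51 and -6.69 after PMA-Ionomycin, and between -4.58 and -4.72 in mock culture. Since neighbouring probes share bases, they are repeated readings of 1 stretch of mRNA and not independent measurements. The 3 GCH1 spots of an array spanned a median of 0.41 log2 units and at most 0.64.

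**Figure D3:**
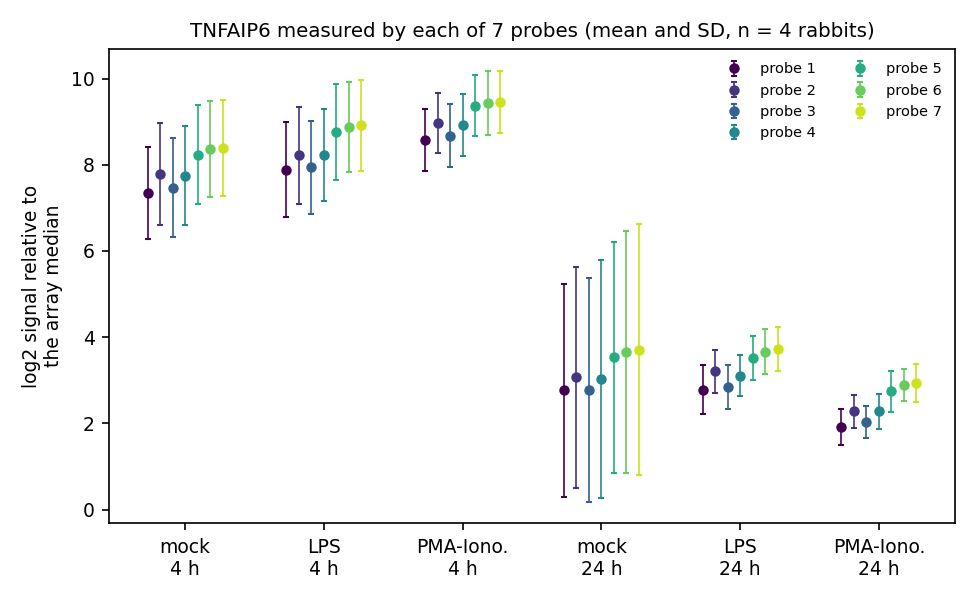
Mean level and SD (n = 4 rabbits) of each of the 7 TNFAIP6 probes in the 6 groups, as log2 signal relative to the array median. All 7 probes drop from 4 h to 24 h, and the wide bars at mock 24 h come from rabbit 5.

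Of the 9 other genes listed for tetrahydrobiopterin synthesis and recycling, 5 were found by name. Between T4 and T24, 3 of 5 rose and none fell after LPS, with a median of 0.86 against -0.19 over all genes, of which 16.7% were higher and 20.9% lower. After PMA-Ionomycin 3 rose and 1 fell (median 0.61 against -0.10), where 20.3% of all genes were higher and 13.4% lower. PCBD2, a carbinolamine dehydratase that recycles the cofactor, rose by 1.33, QDPR, the dihydropteridine reductase, by 0.86, and SPR, the sepiapterin reductase of the last synthetic step, by 0.63. The same 3 genes rose after PMA-Ionomycin, where PCBD2 rose by 1.79 and the call on SPR was lost without rabbit 2. There AKR1B1, an aldose reductase that can serve the pathway, fell by 1.20, a call that was lost without rabbit 1 or rabbit 4. In mock culture PCBD2 alone passed, at 1.05. GCHFR, which encodes the feedback regulator that binds GCH1 protein, passed no test between T4 and T24, with differences of 0.24, 0.14 and -0.07 in mock, LPS and PMA-Ionomycin culture, and was well above background on all 4 arrays of LPS T24 alone.

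Of the 8 enzymes listed as users of tetrahydrobiopterin, 7 were found. NOS1, the neuronal nitric oxide synthase, was well above background on no array, and NOS2, the inducible form, on 1 array of 24. NOS3, the endothelial form, rose from T4 to T24 after PMA-Ionomycin by 0.61 and was above background on all 4 arrays of that group. NOS2 passed the test after LPS with -0.70, a value made up of signals that were not well above background.

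TNFAIP6 acts on hyaluronan and its matrix partners, of which 17 of 24 listed genes were measured. In mock culture, where 5.13% of all genes were lower and 7.42% higher, 3 of them fell and 1 rose (median -0.09 against -0.06 over all genes). THBS1, thrombospondin 1, a ligand of TSG-6, fell by 3.12, PTX3, the long pentraxin that TSG-6 links into hyaluronan matrices, fell by 2.20, and BMP2, a growth factor that TSG-6 binds, fell by 1.24. HYAL1, a lysosomal hyaluronidase, rose by 0.82. The call on BMP2 was lost without rabbit 1 or 5, and that on HYAL1 without rabbit 1 or 2.

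After PMA-Ionomycin 6 of the 17 fell between T4 and T24 and 2 rose (median -0.26 against -0.10), where 13.4% of all genes were lower and 20.3% higher. THBS1 fell by 4.03, VCAN, the hyaluronan-binding proteoglycan versican, by 2.17, CD44, the main hyaluronan receptor of leukocytes, by 1.56, and HAS2, a hyaluronan synthase, by 1.05. HAS2 was well above background in PMA-Ionomycin T4 only, on all 4 arrays, where CD44 was also higher than after LPS by 1.05, a call that was lost without rabbit 4. After LPS 4 fell and 2 rose, with BMP2 at -2.29 and THBS1 at -1.23, the latter not past the threshold, and without rabbit 1 only 1 fell. The median after LPS was -0.28 against -0.19, and the share of the list that fell was near the 20.9% of all genes. PTX3 was also among the genes that fell after PMA-Ionomycin, by 0.96, and its call was lost without any 1 of the 4 rabbits. Without rabbit 2, 4 of the 17 fell. Of the inter-alpha-inhibitor genes, the heavy chain gene ITIH1 fell by 0.68 after PMA-Ionomycin, a call that was lost without rabbit 2, 4 or 5, and ITIH2, ITIH3, ITIH4 and AMBP passed no test between T4 and T24.

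The list of TNF and IL-1 response genes, 22 of 30 measured, included SERPINB2 and PTGS2, whose drops in mock culture were near those of the members. In mock culture 10 of 22 fell from T4 to T24 and 3 rose, where 5.13% of all genes were lower and 7.42% higher, with a median of -1.20 against -0.06 over all genes. SERPINB2 fell by 4.80, PTGS2 by 4.15, IL1B by 3.80, TNF by 3.24, IL1A by 3.16 and IL6 by 2.96. CCL4, a chemokine, fell by 3.27. The calls on CCL4 and IL6 were lost without rabbit 5. The chemokine CCL2 rose by 3.50. After PMA-Ionomycin, where 13.4% of all genes were lower and 20.3% higher, 16 of 22 fell and 1 rose (median -2.06 against -0.10). Those that fell included IL1B by 6.28, PTGS2 by 4.51 and NFKBIA, an inhibitor of NF-kB, by 3.02.

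After LPS, where 20.9% of all genes were lower and 16.7% higher, 4 of the 22 fell and 4 rose (median -0.56 against -0.19). PTGS2 fell by 2.73, TNF by 2.84, BIRC3 by 1.36 and REL by 0.68, whereas CCL2 by 6.14, IL1RN, the IL-1 receptor antagonist, by 2.39, and BCL2A1 by 2.30 were among those that rose. IL1B stood at 8.79 ± 0.63 at T4 and 9.61 ± 0.39 at T24 of LPS culture (SD, n = 4), and SERPINB2 at 7.01 ± 0.64 and 6.22 ± 0.60. Neither difference passed the test. At T24, 4 of the 22 genes were higher after LPS than in mock culture, where 1.23% of all genes passed in either direction and 0.644% were higher. They were IL6 by 4.73, IL1B by 4.16, SERPINB2 by 4.12 and IL1A by 3.16. The call on IL1A was lost without the mock T24 array of rabbit 5, and without rabbit 1, 2 or 4. Without rabbit 4 this number was 2, where 0.298% of all genes passed, and with the rabbit as a block it was 9, where 2.6% did. The corresponding values of the members were 3.0 for GCH1 and 0.05 for TNFAIP6, and 2.71 and -1.26 without the mock T24 array of rabbit 5.

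**Figure D4:**
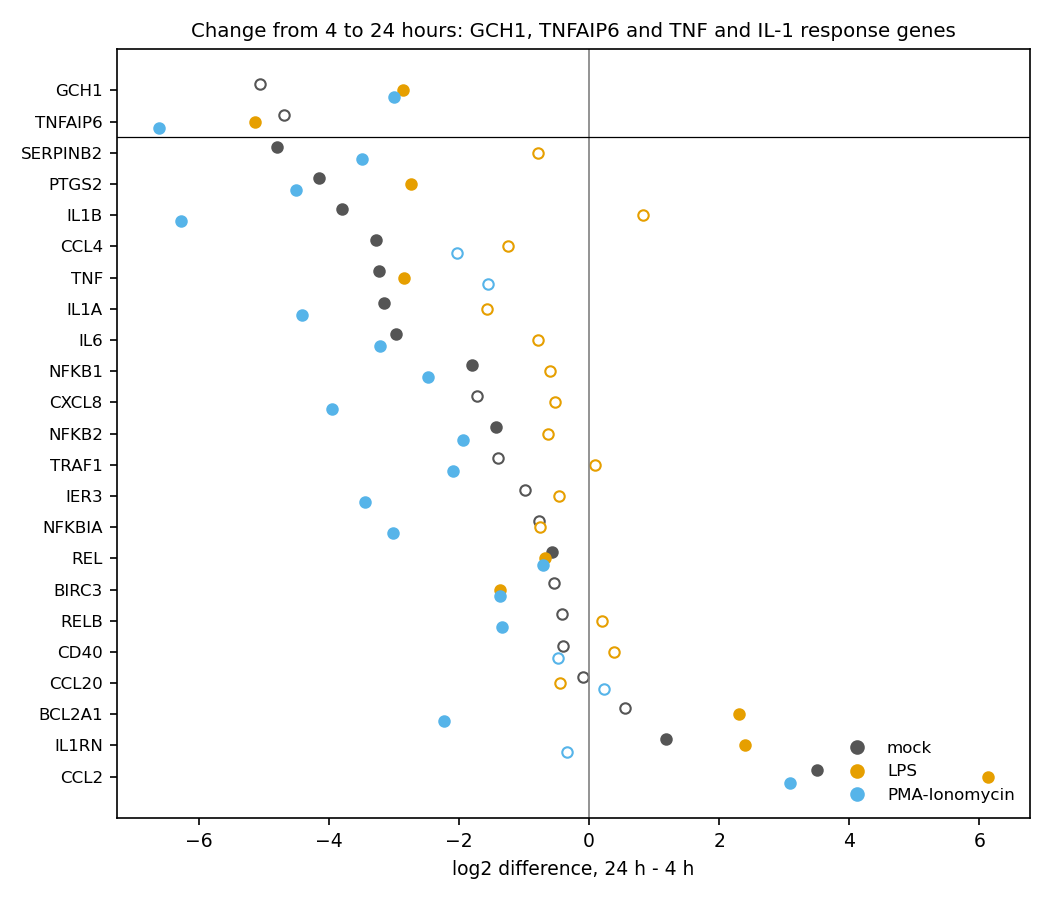
Log2 difference between 24 h and 4 h in mock, LPS and PMA-Ionomycin culture for GCH1 and TNFAIP6 (above the line) and 21 of the 22 measured TNF and IL-1 response genes, ordered by the mock value. Filled circles passed the test at an adjusted p of 0.05 and open ones did not, except that the mock values of GCH1 and TNFAIP6 are open because they chose the genes; LPS points of IL1B and SERPINB2 stand near 0 while those of TNFAIP6 and PTGS2 do not.

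Interferon gamma also drives GCH1 in many cells. Of 16 listed response genes 10 were measured, and they moved in both directions. In mock culture, where 5.13% of all genes were lower and 7.42% higher, 2 fell and none rose (median -0.54 against -0.06), CXCL10 by 1.62 and WARS1 by 1.45, the former not without rabbit 5 or rabbit 1. After LPS, where 20.9% of all genes were lower, 4 fell and 1 rose (median -0.11 against -0.19), with CXCL11 at -2.68 and CXCL10 at -2.53, while without rabbit 2 only 2 fell and none rose, and without rabbit 4 only 3 fell and none rose. After PMA-Ionomycin (median 0.22 against -0.10), where 20.3% of all genes were higher and 13.4% lower, 3 rose, among them CXCL10 by 1.54 and SOCS1 by 1.24, and 3 fell, SOCS3 by 2.99, IRF1 by 1.43 and IRF8 by 1.34. IFNG itself did not pass between T4 and T24 in any culture, with 0.19 in mock, 0.55 in LPS and 0.26 in PMA-Ionomycin cells. These are changes with time and not differences between cultures. At T24 IFNG was 0.92 higher after PMA-Ionomycin than after LPS, a call that was lost without rabbit 2. The paper reports IFNG above mock-stimulated cells after PMA-Ionomycin at both times.

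Cell type markers also moved with time. The mean level of 11 monocyte markers went from 2.13 at T4 to 3.33 at T24 in mock culture and from 1.46 to 2.95 after LPS, with 6 of 11 markers higher at T24 in each and 1 lower in mock culture. Over all genes, 7.42% were higher in mock culture and 16.7% after LPS. After PMA-Ionomycin it went from 1.65 to 1.32, with 5 of 11 lower and 2 higher, against 3 lower and none higher without rabbit 1 and 2 of each without rabbit 4. With all rabbits, 13.4% of all genes were lower in that comparison and 20.3% higher. The 6 platelet markers measured went from 2.34 to -0.08 in mock culture, 5 of them lower, and from 2.10 to -0.23 after LPS, all 6 lower, where 5.13% and 20.9% of all genes were lower. One of the 6, GP1BA, was well above background on no array of any group, and its call after LPS was lost without rabbit 2 or 4. After PMA-Ionomycin they stood at 0.53 and 0.14, with 1 of 6 lower. Their part in the values of GCH1 and TNFAIP6 was not tested. Of 12 T cell markers, 9 were found by name, and CD4 was well above background on no array of any group; the 3 CD3 genes were not among the names found. The mean of 8 neutrophil markers went from 2.97 to 3.86 in mock culture and from 2.77 to 4.21 after LPS, with 4 of 8 higher in each, in mock culture 2 of 8 without rabbit 4. Markers also differed between the stimulations. At T4, 4 of 7 B cell markers were lower after PMA-Ionomycin than after LPS and 1 was higher (median -1.59). Of the 6 platelet markers, 4 were lower (median -1.63). Of the 11 monocyte markers, 2 were lower and 3 higher (median 0.09), with the call on CD68 lost without rabbit 2 or 4. Over all genes, 9.03% were lower and 17.7% higher. At T24, 5 of 8 neutrophil markers (median -1.63) and 7 of 11 monocyte markers (median -1.35) were lower, where 12.5% of all genes were. Their part in the differences of GCH1 between the stimulations was not tested. The group means of the 7 B cell markers lay between 2.79 and 4.06, those of the 2 natural killer markers between -0.13 and 0.72 and those of the 4 erythrocyte markers between -0.09 and 0.05.

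Genes were ranked by likeness among the 6301 with a symbol that stood well above background throughout at least 1 group. There, the levels most like GCH1 over the 24 arrays were those of G0S2 (Pearson r 0.92), KCNN2 (0.91), RASA2 (0.90), JAK2 (0.89) and THBS2 (0.89). G0S2, an inhibitor of triglyceride lipase, had group means of 5.54, 5.74 and 4.55 at T4 in mock, LPS and PMA-Ionomycin culture and of 2.25, 2.87 and 1.88 at T24. The levels most like TNFAIP6 were those of PTGS2 (r 0.93), COQ10B (0.92), PELI1 (0.91), CCL14 (0.91) and SKIL (0.90). PTGS2 had means of 7.35, 8.24 and 9.06 at T4 and of 3.20, 5.51 and 4.55 at T24. GCH1 and TNFAIP6 correlated with each other at r = 0.82, and their deviations from the group means at r = 0.73. By r over the arrays, TNFAIP6 ranked 28 in likeness to GCH1, and GCH1 ranked 33 in likeness to TNFAIP6. Of the 24 points, 8 are the mock arrays whose values chose both genes. Over the 16 stimulated arrays the coefficients were 0.80 and 0.82. The points share 4 rabbits and 6 groups, and these coefficients are descriptions without a test.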

How the data were processed

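Labelled cRNA, copied from total RNA of PBMCs, was hybridised by the authors to one-colour Agilent arrays. The deposited intensity values are the median, mean, background and processed spot signals from Agilent Feature Extraction 10.7.3.1, per the file headers; the deposited log2 table, made by the authors, equals log2 of the median signal less the average of every spot on that array, controls included. Here, log2 median signals were centred on the array's median non-control spot, spots marked as outliers were left out, 61657 spots were averaged to 42089 probes and these to 28890 genes, 9505 of them with a symbol (from the RefSeq accession, the gene number or the study's list of added genes). No filter on low values and no background subtraction were applied, which compresses differences near background. limma 3.58.1 (R 4.3.3) fitted 1 mean per group on 24 arrays, two-sided, with Benjamini-Hochberg adjustment over 28890 genes and a threshold of 0.05; figures were drawn with matplotlib. A probe was well above background as marked by the scanner software, and a gene was when more than 50% of its probes were. Rabbit numbers mark the same animal in each group; deviations from group means correlated at a median r of 0.23 between arrays of 1 rabbit and -0.08 between rabbits. The 8 arrays of each of 3 slides held arrays of all 6 groups. In simulated arrays, 200 genes among 28890 were changed. Of those changed by 2 log2 units, 99% were recovered for LPS T24 against T4. This was 95% to 97% for the other 3 direct comparisons and 93% for the difference of time changes. Between 3.43% and 6.13% of the calls were false. The simulated noise was independent between arrays, without rabbit effects. These rates are averages over genes and do not give the rate for a gene with a wide spread such as TNFAIP6.

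GCH1 and TNFAIP6 were selected on the mock arrays, and the members, gene lists and tests were chosen with earlier results of these data known. Genes named are the members, their neighbours in the order of drops, the 5 most alike genes of each and the list genes. Some genes under this rule are not reported here. Lists were described by counts and medians. Alternatives were the deposited table, quantile normalization, normexp (offset of 50) followed by quantile normalization, processed signals set to the 75th percentile of each array, a filter on dim probes, outlier spots kept, single probes, only the groups compared, rabbit or slide as a block, and each rabbit left out; the mock T24 array of rabbit 5 was left out after its value was seen. The number of arrays limits the precision.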

Additional observations from a re-analysis of the deposited data

Results flagged for a closer look

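The share of spots well above background was 52.6% on the PMA-Ionomycin T4 array of rabbit 2 and 59.0% to 60.0% on the other 3 of that group, with a gap of 0.866 of the group's range, above Dixon's 95% critical value for 4 arrays. Of 18 such groups of 4 searched, this was the only one flagged, and chance flags about 1 in 20. The mock T24 array of rabbit 5 had a ratio of 0.753 for TNFAIP6, under the critical value.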

How the results depend on the processing

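For the 10 tested differences of GCH1 and TNFAIP6, each alternative kept the direction and the side of the threshold except in these cases. The difference between the time changes of GCH1 turned from -0.15 to 0.073 with quantile normalization and to 0.22 with normexp and quantile normalization. It ranged from -0.39 to 0.10 when 1 rabbit was left out, and from -0.53 to 0.22 over all alternatives. It passed the test in none of these. The T24 difference of TNFAIP6 between PMA-Ionomycin and LPS, -0.82, passed with only the arrays compared. The 4 declines in stimulated culture and both GCH1 differences between stimulations passed in every alternative run.
With the rabbit as a replicate block, no call on either member changed; the time change of GCH1 after LPS, -2.86, had an adjusted p of 2.45e-07 by limma.
With the processed signal scaled to its upper quartile, the median of all genes moved to -0.46 for LPS T24 against T4 and to -0.41 for PMA-Ionomycin against LPS at T4, from -0.19 and -0.04, and with quantile normalization the first was -0.03; the tested decreases of both members were larger than these shifts. Outside the tests, the mock drop of GCH1 (-6.47) and its T24 difference of LPS from mock (4.22) moved with the processed signal by more than the spread between rabbits. Signals near background limit the mock T24 levels most, where the GCH1 array and 6 of 7 TNFAIP6 probes of rabbit 5 were not well above it.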
